A study of Mus musculus with 6 samples.

Results

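The RNA polymerase I (Pol I) machinery was examined in mouse erythroblasts cultured with or without added cholesterol. The 10 genes were found by symbol, from a list drawn up with earlier results of these data known. They encode 5 subunits of the enzyme (Polr1a, Polr1b, Polr1c, Polr1d and Polr1e) and 5 initiation factors (Ubtf, Rrn3, Taf1a, Taf1b and Taf1c). All 10 were found among the 17463 genes listed by the authors, and all 10 were among the 11277 genes that passed the filter on low counts. TER119-negative erythroblasts from C57BL/6J fetal liver were kept for 30 h in medium with erythropoietin (Epo), under which they mature into red cells. Cholesterol was added at 40 µM to 3 samples and not to the 3 control samples, which the labels call untreated and the study calls vehicle-treated. According to the study, the cells that had gained TER119 were sorted before RNA extraction. The study states the embryonic stage of its fetal livers, but the labels do not. Nor do the labels say whether the samples came from separate livers, so p-values measure the spread between these samples only, which may be technical.

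Pol I transcribes the ribosomal DNA repeats in the nucleolus into the precursor of the large ribosomal RNAs, which is the first step of ribosome biogenesis. Initiation needs UBF (Ubtf), which binds along the repeats, and selectivity factor SL1, which holds TBP and TBP-associated factors such as Taf1a, Taf1b and Taf1c at the promoter. Rrn3 (TIF-IA) joins the polymerase to SL1 and is a target of growth signaling, mTOR included. Dividing erythroblasts make many ribosomes, which serve globin synthesis. The libraries were prepared from polyadenylated RNA, so the mRNAs of the machinery were measured, and its product, the pre-rRNA, was not analysed here.

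Estimated totals lay between 19826849 and 20061724 counts per sample, and 1 count corresponded to 0.0493 to 0.0519 CPM, the unit used below for levels of 1 gene (counts relative to the TMM-scaled total of the library). All 8 erythroid markers were detected, with a summed level of 80500 to 104000 CPM in control and 69600 to 98200 CPM with cholesterol. The sterol exporter gene Abcg1, a known target of the sterol-sensing liver X receptors, was at 6.93, 4.36 and 6.38 CPM in control samples 1 to 3 and at 101, 93.9 and 99.0 CPM with cholesterol, so the groups were far apart for this check of the treatment. Same-numbered samples deviated together from their group means. The correlation of these deviations, computed over 11277 genes that are not independent of each other, was 0.729, 0.348 and 0.825 for numbers 1 to 3. Each comparison is given with condition alone in the model, and also with a term for the replicate number (a block), which compares samples within same-numbered pairs. Hmgcs1 and Srebf2, also set as checks of the treatment, were lower with cholesterol without overlap (log2 fold changes −2.06 and −1.33). In edgeR neither passed an adjusted p of 0.05 (0.864 and 0.534 with condition alone, 0.0504 and 0.133 with the block). In DESeq2 both did (2.75e-07 and 3.84e-13), so edgeR can leave changes of this size uncalled here.

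The starts of 3 members are shown because the results below turn on Polr1a and Taf1c, and because Rrn3 alone among the members carries the E-box searched for. The sequences are from RefSeq (GRCm38.p6, the build named in the submitters' processing notes) and cover the 250 bases before the annotated start, 5′ to 3′ on the gene's strand. Capitals mark matches on either strand to CCAAT, to the ETS core CCGGAAG or to the E-box CACGTG, which MYC and related factors are known to bind. The Polr1a window is chr6:71908803-71909052 (plus strand), the Rrn3 window chr16:13780449-13780698 (plus strand) and the Taf1c window chr8:119605207-119605456 (minus strand, the start at the end of the gene's annotated span, 1 of 2 starts listed).
Polr1a: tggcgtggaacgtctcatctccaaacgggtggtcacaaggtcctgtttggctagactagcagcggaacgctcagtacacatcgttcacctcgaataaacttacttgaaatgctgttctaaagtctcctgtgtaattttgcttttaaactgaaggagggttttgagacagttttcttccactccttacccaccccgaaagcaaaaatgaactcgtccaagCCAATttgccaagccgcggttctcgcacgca
Rrn3: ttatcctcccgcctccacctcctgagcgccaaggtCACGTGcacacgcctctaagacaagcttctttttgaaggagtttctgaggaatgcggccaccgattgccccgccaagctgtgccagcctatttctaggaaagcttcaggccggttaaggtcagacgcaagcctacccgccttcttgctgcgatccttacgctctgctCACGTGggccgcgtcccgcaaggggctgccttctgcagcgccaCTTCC
Taf1c: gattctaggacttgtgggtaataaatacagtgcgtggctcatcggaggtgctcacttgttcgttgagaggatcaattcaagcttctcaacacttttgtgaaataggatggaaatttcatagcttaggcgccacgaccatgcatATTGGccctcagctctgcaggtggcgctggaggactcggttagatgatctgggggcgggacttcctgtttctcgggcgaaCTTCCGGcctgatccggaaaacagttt
The match in Polr1a is a CCAAT box at −31. Taf1c has a CCAAT box at −107 and an ETS core at −27, both on the opposite strand. Rrn3 has E-boxes at −215 and −48, and ETS cores at −5, which runs past the start, and at 19, beyond it. In windows of 300 bases (250 before and 50 after the start), the ETS core was found for 6 of the 10 members (Polr1c, Polr1e, Rrn3, Taf1a, Taf1b and Taf1c) and CCAAT for 4 (Polr1a, Taf1a, Taf1c and Ubtf). Some members have several annotated starts, and per window the ETS core was in 7 of 17, CCAAT in 6 of 17 and the E-box in 1 of 17. Of all 32851 windows in the table, 8.86% held the ETS core, 37.4% CCAAT and 7.15% the E-box. The sterol regulatory element TCACNCCAC, a form of the site that SREBP proteins bind, was in 0 of the 17 windows of the members and in 1.24% of all windows. These matches are letters in a window and not measured binding.

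The members were expressed over a wide range. Levels are compared between genes as FPKM, the authors' values per transcript length, because a long transcript gives more reads. Polr1d, which encodes a small subunit shared with Pol III, was highest, at 105, 98.8 and 77.7 FPKM in control samples 1 to 3 and 112, 100 and 82.3 FPKM with cholesterol. Its control mean lay at percentile 93 of all genes tested. Ubtf followed at 56.4 ± 0.854 FPKM in control (SD, n = 3). Rrn3 (23.2 ± 4.1) and Polr1c (21.6 ± 3.81) came next and overlapped in both groups, although Rrn3 was above Polr1c in 6 of 6 samples. Polr1a was at 12 ± 2.99 FPKM, Taf1c at 7.87 ± 0.373 and Polr1b at 6.56 ± 1.81 in control. Polr1b and Taf1b (6.37 ± 0.275) could not be ordered, since Polr1b was higher in 3 of 6 samples. Polr1e (3.27 ± 0.369) and Taf1a (2.01 ± 0.115, percentile 27.9) were lowest, and neither overlapped its neighbors in the order. Polr1a and Taf1c did not overlap in control but did with cholesterol, and for Taf1c and Polr1b the reverse held.

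**Figure D1:**
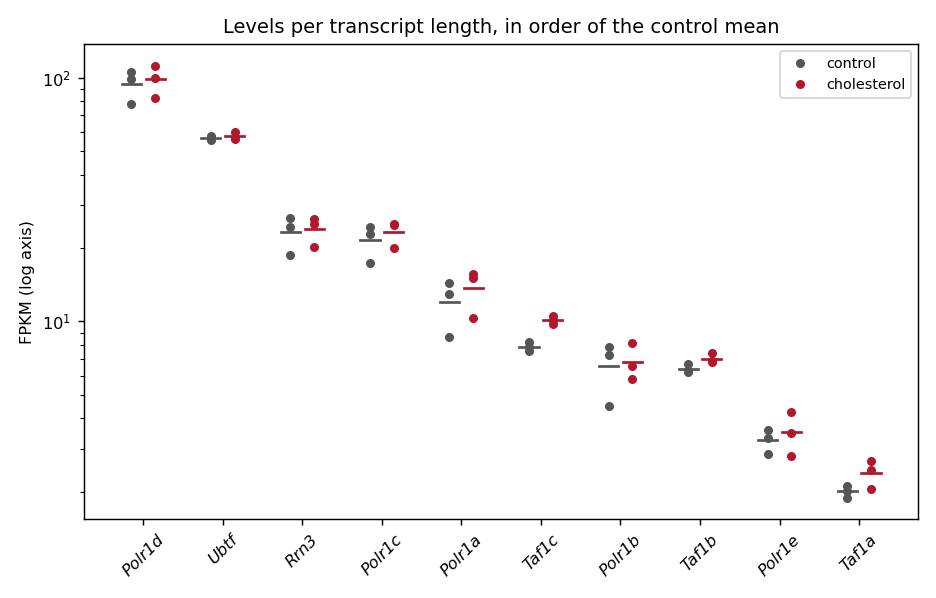
Level of the 10 Pol I genes in FPKM (log axis), ordered by the control mean. Points are the 3 samples of each group and short lines their means. The range runs from about 2.01 (Taf1a) to 93.8 FPKM (Polr1d) in control, and the step between groups is small beside it.

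The level of most members differed little between the groups. With cholesterol, 9 of the 10 had a log2 fold change above 0 and 1 (Ubtf) below, although Ubtf too was above 0 with total counts and on FPKM values, and 52.1% of all genes tested were above 0. The median log2 fold change was 0.08, against 0.01 over all genes tested, and the range was −0.01 (Ubtf) to 0.32 (Taf1c). The members' median difference was 0.09 in each of the 3 same-numbered pairs. In edgeR's quasi-likelihood test with condition alone, 0 of the 10 passed an adjusted p of 0.05, where 0.00887% of genes were called higher and 0% lower. DESeq2 and limma also called 0 members, where they called 31 and 1 of the 11277 genes tested. At an unadjusted p under 0.05 there was 1 member (Taf1c), where 2.63% of genes passed. With the block, 2 members were called higher (Taf1c and Polr1a) and 0 lower, where 1.65% of genes were called higher and 5.2% lower. Both calls exist only in this model, which made more false calls on simulated data than its adjusted p implies. These 2 were also the members past an unadjusted p of 0.05 in the higher direction, where 8% of genes were. The estimated counts of Polr1b, Polr1e, Ubtf, Rrn3, Taf1a and Taf1c are not whole, so some of their reads were shared with other features by the authors' counting. With condition alone, the members' median was 0.01 without control sample 3 and 0.02 without cholesterol sample 1, with 6 of 10 members above 0, and it was 0.14 without control sample 1 and 0.15 without cholesterol sample 3. With the block and both samples of number 1, 2 or 3 left out, it was 0.09, 0.08 and 0.08, with 10, 8 and 7 members above 0.

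**Figure D2:**
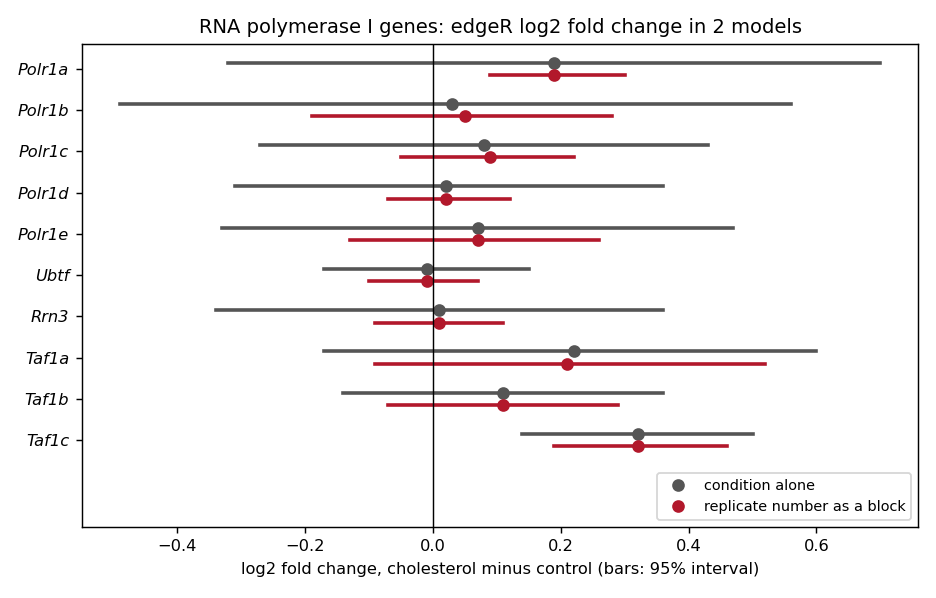
Log2 fold change of each member (cholesterol minus control, edgeR) with its 95% interval, with condition alone (gray) and with the block (red). The intervals of Taf1c lie above 0 in both models, from 0.14 to 0.50 and from 0.19 to 0.46 before adjustment for multiple testing, and that of Polr1a only with the block.

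Among the catalytic subunits, Polr1a encodes the largest subunit and forms the active center with the product of Polr1b. Polr1a (chr6:71909053-71979435) was at 82.6, 74.3 and 52.2 CPM in control samples 1 to 3 and at 90.2, 86.0 and 62.1 CPM in cholesterol samples 1 to 3. The groups overlapped, but each cholesterol sample was above the control sample of the same number, by 0.13, 0.21 and 0.25 on the log2 scale. The log2 fold change was 0.19 with a standard error of 0.21, and edgeR gave an adjusted p of 1. With condition alone, leaving out 1 sample made the numbers unequal between groups. The value was then 0.02 without control sample 3, 0.09 without cholesterol sample 1, 0.33 without control sample 1 and 0.34 without cholesterol sample 3. With the block it was again 0.19, with a standard error of 0.05 and an adjusted p of 0.0211, so Polr1a was called only when samples were compared within numbers. Without both samples of number 2, the log2 fold change in the model with the block was still 0.19 but the adjusted p was 0.134, and without number 1 or 3 the values were 0.23 and 0.17. Polr1b (chr2:129100970-129128060) was not called (log2 fold change 0.03, adjusted p = 1, and 0.876 with the block) and its pairs differed in sign. It was at 30.0, 31.3 and 18.8 CPM in control and 32.2, 26.0 and 23.8 CPM with cholesterol, with pair differences of 0.10, −0.27 and 0.34. The Polr1a to Polr1b ratio of FPKM values was 1.85 ± 0.174 in control and 2 ± 0.266 with cholesterol (both SD, n = 3). The difference was within the spread of either group.

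Polr1c and Polr1d encode the pair of subunits on which the enzyme assembles, both shared with Pol III, and variants of the human genes cause Treacher Collins syndrome. Polr1c (chr17:46243920-46248045) was at 32.6, 29.4 and 23.5 CPM in control and 32.1, 31.8 and 26.5 CPM with cholesterol, with overlap between groups and a higher value in 2 of 3 pairs. Polr1d (chr5:147076715-147111361) was at 109, 99.0 and 83.1 CPM in control and 111, 100 and 84.3 CPM with cholesterol. It was the member whose pairs agreed best, with differences of 0.03, 0.02 and 0.02, and its log2 fold change with the block was 0.02 with a 95% interval of −0.07 to 0.12. The ratio of Polr1c to Polr1d in FPKM was 0.229 ± 0.00629 in control and 0.238 ± 0.0127 with cholesterol (SD, n = 3). Polr1e, which encodes a Pol I-specific subunit that aids initiation and elongation, lies at chr4:45018609-45034279. It was at 13.2, 11.8 and 10.8 CPM in control and 15, 12.3 and 10.3 CPM with cholesterol, and its pairs differed in sign. The annotated span of Polr1e overlaps that of Fbxo10, which had 50 to 70 counts in a sample. None of these 3 genes was called in either model (adjusted p = 1 with condition alone, and 0.524, 0.843 and 0.769 with the block).

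Ubtf and Rrn3 had the log2 fold changes nearest 0. Ubtf (chr11:102304560-102323649) was at 241, 234 and 254 CPM in control and 232, 237 and 254 CPM with cholesterol, and the groups overlapped. Its log2 fold change with condition alone was −0.01, with a 95% interval of −0.17 to 0.15, and −0.01 with the block (−0.10 to 0.07). The sign of this value turned with total counts in place of TMM (0.02) and on FPKM values (0.03). The UBF1 and UBF2 isoforms made from Ubtf are not separated in counts per gene. Rrn3 (chr16:13780699-13814841) was at 99.3, 88.1 and 71.3 CPM in control and 94.2, 90.7 and 75.1 CPM with cholesterol. It was lower in pair 1 and higher in pairs 2 and 3, with a log2 fold change of 0.01 (95% interval −0.09 to 0.11 with the block). Neither gene was called (adjusted p = 1 with condition alone, and 0.916 and 0.929 with the block).

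Of the 10 members, the SL1 genes Taf1c and Taf1a had the highest log2 fold changes in both edgeR models with all samples. The order changed in some alternatives, such as without control sample 1, where Polr1a (0.33) was above Taf1c (0.3). Taf1c encodes the largest of the Pol I-specific TBP-associated factors and lies at chr8:119597974-119605206. It was at 24.5, 26.2 and 26.0 CPM in control samples 1 to 3 and at 33.3, 30.3 and 32.4 CPM in cholesterol samples 1 to 3. In CPM it was the only member whose groups did not overlap, 1 of 10 higher and 0 lower, where 3.72% and 4.28% of all genes did so. In FPKM, a comparison added after the data were seen, Taf1b did not overlap either, so that 2 of 10 members were higher and 0 lower, where 5.1% and 2.94% of all genes were. The pair differences were 0.44, 0.21 and 0.32. The log2 fold change was 0.32 in both models (standard error 0.07), with an adjusted p of 1 with condition alone, 0.00467 with the block and 0.321 in DESeq2. Without both samples of number 1, the model with the block gave a log2 fold change of 0.27 and an adjusted p of 0.0686. The exact permutation test of this gene gave p = 0.1 (two-sided), the smallest that 3 against 3 samples allow. Its spread was small, with a coefficient of variation of 3.56% in control, close to the 3.85% to 4.54% that counting alone gives at its read counts. The gene Dnaaf1 overlaps Taf1c in the annotation and had 2.44 to 19.49 counts in a sample, and no source states that counting used strand.

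Taf1b, whose product resembles the Pol II factor TFIIB, lies at chr12:24498581-24558571. It was at 12.9, 12.4 and 14.2 CPM in control and 13.7, 13.7 and 15.3 CPM with cholesterol. It was higher in 3 of 3 pairs, with log2 differences of 0.08, 0.14 and 0.11. Control and cholesterol values overlapped in CPM but not in FPKM (6.19 to 6.69 in control and 6.83 to 7.39 with cholesterol), and it was not called (adjusted p = 1, and 0.528 with the block). Taf1a (chr1:183388885-183410201) was at 5.16, 4.75 and 4.78 CPM in control and 5.77, 6.27 and 5.01 CPM with cholesterol, and was not called either (log2 fold change 0.22, adjusted p = 1, and 0.463 with the block). Its 91.79 to 127.26 counts per sample carry a counting error of 8.86% to 10.4%, and the 95% interval of its log2 fold change ran from −0.17 to 0.60. The Taf1c to Taf1b ratio in FPKM, which does not depend on library scaling, was 1.21, 1.34 and 1.17 in control and 1.54, 1.42 and 1.36 with cholesterol. The nearest values of the groups, 1.34 and 1.36, lie closer together than the counting error of Taf1b (5.77% to 6.31%). The Taf1c to Taf1a ratio overlapped (3.93 ± 0.326 and 4.28 ± 0.633, SD, n = 3). In all, 5 of 10 members were higher in 3 of 3 pairs (Polr1a, Polr1d, Taf1a, Taf1b and Taf1c) and 0 were lower in 3 of 3, where 19.9% and 20.1% of all genes were.

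**Figure D3:**
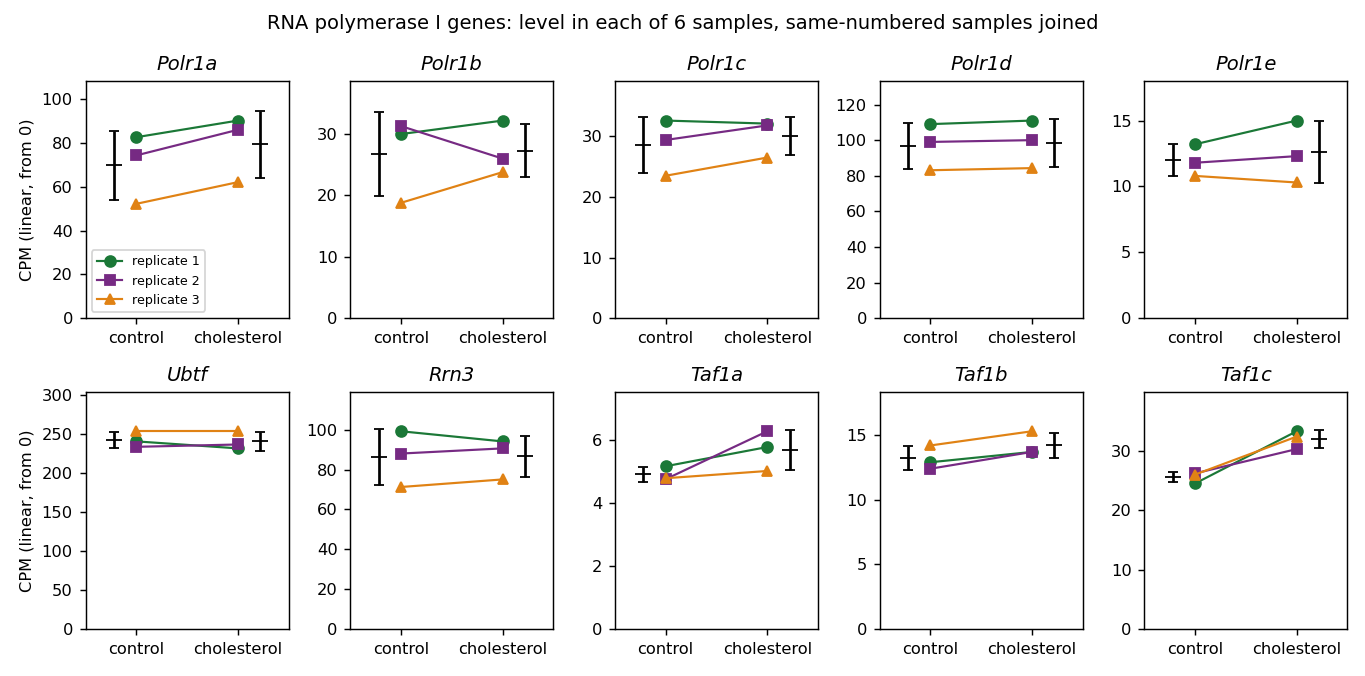
CPM of each member in the 6 samples (linear axis from 0), with same-numbered samples joined, and the group mean and SD in black beside them. Taf1c is the panel in which the 3 cholesterol samples (30.3 to 33.3 CPM) lie above the 3 control samples (24.5 to 26.2 CPM), while the 5 subunit genes are lowest in sample 3 of each group.

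For every member but Taf1a and Taf1c, the difference between the samples numbered 3 and 1 was larger in both groups than the fold change between groups. Polr1a, Polr1b, Polr1c, Polr1d, Polr1e and Rrn3 were lowest in the sample numbered 3 in both groups, 6 of 10 members, as were 33.2% of all genes tested. Between samples 3 and 1 they differed by −0.67 (Polr1b) to −0.29 (Polr1e) in control and by −0.54 to −0.27 with cholesterol, on the log2 CPM scale. Ubtf and Taf1b were highest in the sample numbered 3 in both groups, as were 32.6% of all genes. Taf1a and Taf1c followed neither order. The spread within a group was accordingly unequal. In control the coefficient of variation was 25.7% for Polr1b, 22.6% for Polr1a, 16.3% for Rrn3 and 16.2% for Polr1c, where counting alone gives at most 5.25%, 3.15%, 2.7% and 4.7%. It was 4.19% for Ubtf and 4.62% for Taf1a, the latter below its counting error.

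**Figure D4:**
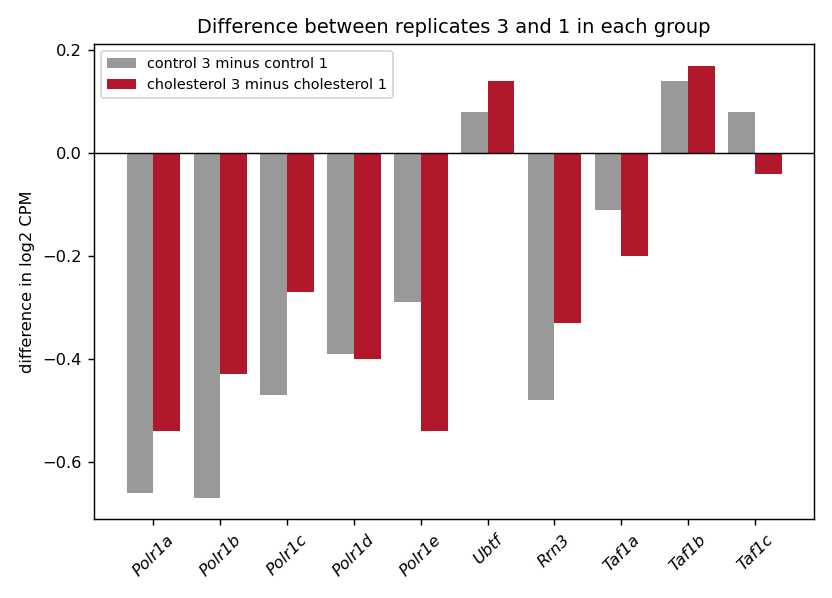
Difference in log2 CPM between the samples numbered 3 and 1, in control (gray bars) and with cholesterol (red bars), from 0. The 5 subunit genes and Rrn3 have bars of −0.27 or lower in both groups, and Ubtf and Taf1b have bars above 0.

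Markers of other cell types also varied with number and treatment. Granulocyte markers summed to 70.4, 253 and 674 CPM in control samples 1 to 3 and to 40.5, 110 and 281 CPM in cholesterol samples 1 to 3, and 9 of 9 were called lower with the block, against 5.2% of all genes. For macrophage markers the sums were 18.1, 42.3 and 130 CPM in control and 13.1, 19.2 and 57.2 CPM with cholesterol, and 5 of the 7 tested were called lower with the block. With condition alone, edgeR called 0 granulocyte and 0 macrophage markers (0 at an unadjusted p under 0.05), as did DESeq2. Mast cell and basophil markers summed to 1.47 to 17.0 CPM in control and 0.444 to 2.66 CPM with cholesterol, with Tpsb2 at 0 in every sample, and both genes tested were called lower with the block (1 at an unadjusted p under 0.05 with condition alone). Megakaryocyte markers lay between 58.2 and 75.2 CPM in all samples. Of these, 1 gene was called lower with the block (1 at an unadjusted p under 0.05 with condition alone). B cell markers reached 4.05 CPM at most. Hepatocyte markers summed to 110, 91.6 and 261 CPM in control and to 191, 63.2 and 222 CPM with cholesterol. All 8 erythroid markers were lower with cholesterol in 3 of 3 pairs, as were 20.1% of all genes. Of the 8, 1 was called lower with the block and 0 by edgeR with condition alone (0 at an unadjusted p under 0.05) or by DESeq2. Globin genes took 13.8% to 17.9% of the counts in control and 12.5% to 16.2% with cholesterol. In both groups the sample numbered 3 had the highest granulocyte, macrophage, mast cell, hepatocyte, B cell, erythroid and globin values, and the part of these values in the results for Polr1a and Taf1c was not tested. With the globin genes left out before scaling, the model with the block gave adjusted p-values of 0.0222 for Polr1a and 0.00558 for Taf1c. In bulk RNA, fewer cells of a type and less RNA per cell cannot be told apart.

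The rest of the Pol I apparatus was taken from lists set by the function of the genes. Of 8 further subunits of the enzyme, 5 had a log2 fold change above 0, and 0 were called with condition alone (0 at an unadjusted p under 0.05), by DESeq2 or with the block (1 at an unadjusted p under 0.05, Polr2k). The smallest p belonged to Polr2k, which encodes a small subunit of all 3 nuclear polymerases. Polr2k was at 10.2, 10.4 and 8.62 CPM in control and 14.8, 12.1 and 8.08 CPM with cholesterol, so that pair 3 went the other way (log2 fold change 0.26, adjusted p = 1, and 0.247 with the block). Polr2f and Cd3eap, the latter a Pol I-specific subunit now named Polr1g, had log2 fold changes of 0.09 each. The median of the list was 0.03.

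Of 15 further Pol I factors and rDNA regulators, 11 were above 0 and 4 below, with a median of 0.04, and 0 were called in either model or by DESeq2 (0 at an unadjusted p under 0.05 with condition alone, 3 higher and 2 lower with the block). Taf1d, another SL1 subunit, was at 38.0, 34.4 and 26.8 CPM in control and 41.4, 37.9 and 33.3 CPM with cholesterol, higher in 3 of 3 pairs (log2 fold change 0.18, adjusted p = 1, and 0.0737 with the block). Cavin1, known as a Pol I transcript release factor and a coat protein of caveolae, was at 2.17, 1.83 and 2.91 CPM in control and 1.38, 1.14 and 1.74 CPM with cholesterol. Its groups did not overlap, but it was not called (log2 fold change −0.70, adjusted p = 1, and 0.116 with the block). The groups of Taf12 did not overlap either, at 68.7 to 72.7 CPM in control and 61.9 to 67.5 CPM with cholesterol (log2 fold change −0.15, adjusted p = 1, and 0.101 with the block). Taf12 encodes a subunit of TFIID and SAGA that has also been described in SL1. Of the 15, 0 were higher and 2 lower without overlap, where 3.72% and 4.28% of all genes were.

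The subunits specific to Pol III and Pol II were set beside these lists. Of 11 Pol III subunits, 9 were above 0, with a median log2 fold change of 0.07, and 0 were called in either model or by DESeq2 (0 at an unadjusted p under 0.05, and 1 with the block). In 3 of 3 pairs 7 of the 11 were higher and 0 lower, beside 5 and 0 of the 10 Pol I members. Of all genes tested, 19.9% were higher and 20.1% lower in 3 of 3 pairs. Crcp had the smallest p, at 38.4, 35.2 and 37.7 CPM in control and 40.1, 41.4 and 40.6 CPM with cholesterol, without overlap (log2 fold change 0.13, adjusted p = 1, and 0.210 with the block). Polr3b (0.15) and Polr3f (0.07) followed. Of the 11, 1 was higher without overlap (Crcp) and 0 were lower, where 3.72% and 4.28% of all genes were. Of 7 Pol II subunits, 5 were above 0, with a median of 0.02, and 0 were called in either model or by DESeq2 (0 at an unadjusted p under 0.05 in both). Polr2a, the largest subunit, was at 452 ± 16.3 CPM in control and 467 ± 34.1 CPM with cholesterol (SD, n = 3), and Polr2j and Polr2b had log2 fold changes of 0.05 and −0.03. The medians of the 5 lists thus lay between 0.02 and 0.08, and no difference between lists was tested.

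**Figure D5:**
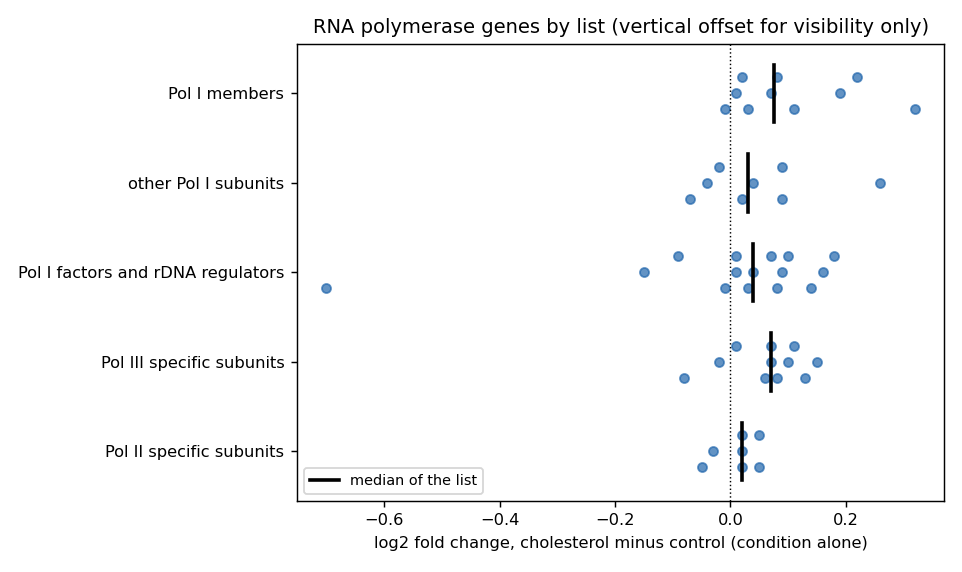
Log2 fold change of each gene in the 5 lists (cholesterol minus control, condition alone), with the median of each list as a black bar. Values lie close to 0, with Taf1c (0.32) and Cavin1 (−0.70) at the ends.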

How the data were processed

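Polyadenylated RNA of 3 control and 3 cholesterol samples was sequenced with single-end reads. The submitters' processing notes name HISAT2 2.0.4, Bowtie2 2.2.5, RSEM 1.2.12, DESeq2 1.4.5 and GRCm38.p6, without roles. The authors deposited expected counts per gene (27.9% to 29.5% of values not whole, which were rounded for tests) and a table of normalized values taken as FPKM, since the length implied by count, value and total varied by a median of 0.28% across samples (6119 genes). The rounded counts entered edgeR 4.0.16 under R 4.3.3 (filterByExpr, TMM, robust quasi-likelihood, Benjamini-Hochberg adjustment over 11277 genes). Standard errors came from the F statistic. The model held condition alone, and a second one added the replicate number as a block. The numbers come from the sample titles. Since same-numbered samples deviated together, most clearly for number 3, the blocked values are given where they change a call. Tested on data simulated from these libraries, the model with the block made more false calls than its adjusted p implies. The alternatives were DESeq2 1.42.0, limma 3.58.1 on log2(FPKM + 1) and log2(FPKM + 0.1), other scalings and filters, and samples left out. No 2 libraries were copies (chi-square per degree of freedom at least 8.65). All members are named, and of each further list the 3 genes with the smallest p and any gene called with condition alone or with the block. Members and lists were chosen with earlier results of these data known.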

Additional observations from a re-analysis of the deposited data

How the results depend on the processing

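Polr1a, Taf1a, Taf1b and Taf1c had a log2 fold change above 0 under every alternative run, from 0.02 to 0.34 for Polr1a and from 0.27 to 0.38 for Taf1c. Their adjusted p ranged from 0.00362 to 1 and from 6.52e-05 to 1. Both genes were called in the paired analysis alone, that is, with the replicate number as a block. There 2 members were called, and 1, 1 and 2 without both samples of numbers 1, 2 and 3 (Polr1a, Taf1c, and both). The block changed no other call among the members or the further lists. Of the further Pol I genes, 2 (Polr2k and Nolc1) were called higher with the block without number 3. Over all genes, 1 was called with condition alone, 31 by DESeq2, 772 with the block (186 higher and 586 lower), and 821, 296 and 726 with the block without numbers 1 to 3. When each sample was left out without the block, 1 to 8 genes were called, 8 without control sample 3 and 2 without cholesterol sample 3.

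Some settings were chosen after the data were seen. With the block and total counts, RLE factors, no globin genes or no filter on low counts, 713, 720, 735 and 1197 genes were called, with 2 members in each. Total counts gave 277 higher and 436 lower. Of the further Pol I genes, 2 (Nolc1 and Taf1d) were called higher with the block and total counts, and 3 (Nolc1, Taf1d and Tcof1) with no filter. Nolc1 and Tcof1 were named after their values were seen.

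Values near 0 changed sign when a sample was left out. The ranges were −0.16 to 0.17 (Polr1b), −0.04 to 0.19 (Polr1c), −0.08 to 0.13 (Polr1d), −0.08 to 0.20 (Polr1e), −0.11 to 0.13 (Rrn3) and −0.05 to 0.02 (Ubtf). With the block, Polr1b was at −0.08 without number 3, Rrn3 at 0.00 and −0.02 without numbers 2 and 3, and Ubtf at 0.01 without number 1. Ubtf was at 0.02 with total counts, with and without the block, and at 0.03 in limma with either pseudocount. The cause of these changes was not tested. At 3 against 3 samples an exact test of 1 gene cannot go below p = 0.1.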
